A study of Mus musculus with 6 samples.

Results

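The genes of T, natural killer (NK) and B lymphocytes were examined in tumour cells sorted from MMTV-Wnt-1 mice. The set was chosen by gene symbol: each gene was represented by the probe set (the group of array probes for a transcript) with the highest mean over the 6 arrays, at any level, among probe sets annotated with a single symbol. Of 38 listed genes, 36 were measured, of 18193 genes in all, and they comprised 31 T and NK cell genes and 5 B cell genes. Lck and Il2rg, a T cell kinase and a shared cytokine receptor chain, were not analysed here.

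In MMTV-Wnt-1 mice a Wnt1 transgene is driven in mammary cells by a promoter of mouse mammary tumour virus, and the glands form tumours. Cells from the tumours of 3 mice were separated by fluorescence-activated sorting. The arrays labelled tumorigenic (3, from mice 1, 2 and 3) held cells gated as CD24+, Thy+ and CD45-. The arrays labelled nontumorigenic (3, from the same mice 1, 2 and 3) held cells whose label reads "not" before the same gate, which does not settle whether the negation reaches CD45. All groups share the transgene, and strain, age and treatment are not given in the labels used here. The comparison asks how the cells called tumorigenic differ from the other cells sorted out of the tumours of those mice. Values are log2 expression levels per probe set, normalised by the authors with RMA (robust multi-array average), and a difference of 1 log2 unit is a doubling. Each mouse gave 1 array per population, so replicates were separate animals and their number limits the precision.

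T cells recognise antigen through a receptor that signals through the CD3 chains, and they carry either the CD4 or the CD8 coreceptor. CD8 T cells and NK cells kill target cells with granzymes and perforin, and NK cells use lectin-like surface receptors to sense stressed cells. B cells signal through CD79 chains that sit beside surface antibody. Lymphocytes carry CD45, and mouse T cells also carry Thy1, a marker of the sort gate, while CD24 is found on B cells as well as on mammary epithelium.

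Most T and NK cell genes stood high in 1 array, that of the labelled tumorigenic cells of mouse 1, and the 5 B cell genes did not. In that array 19 of 31 T and NK cell genes (61.3%) lay over 1 log2 unit above each of the other 5 arrays, against 2.11% of all 18193 genes. By over 2 log2 units 13 of 31 did, against 0.66% of all genes, and of the 5 B cell genes 0 did by either measure. None of the other 5 arrays stood over 1 log2 unit above the rest for any member. Of all genes, 1.02% and 0.495% did so in labelled tumorigenic mice 2 and 3, and 0.89%, 0.55% and 0.698% in labelled nontumorigenic mice 1, 2 and 3. Within mouse 1 the median difference, labelled tumorigenic minus labelled nontumorigenic, was 2.14 for T and NK cell genes and 0.18 for B cell genes. Differences above 1 log2 unit were found in 23 of 31 T and NK cell genes in mouse 1, against 8.54% of all genes, in 2 of 31 in mouse 2, against 7.43%, and in 1 of 31 in mouse 3, against 4.66%. In mice 2 and 3 the T and NK medians were 0.0086 and -0.033.

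As a comparison of the 2 populations over 3 mice, no member passed. With limma fitted to all 18193 genes, 0 of 36 members had an adjusted p below 0.05 (the lowest was 0.661), against 0.0055% of all genes, which is 1 gene. At an unadjusted p below 0.05 the count of members was also 0, against 4.74% of all genes on the higher side and 3.0% on the lower side. The ranges of the populations were apart in 0 of 36 members, against 6.07% of all genes on the higher side and 5.16% on the lower side. The median difference of T and NK cell genes was 0.57, with 26 of 31 members above 0, while all genes had a median of -0.0044 with 49.3% above 0. When labelled tumorigenic mouse 1 was left out, that median was -0.00011 and 15 of 31 members were above 0. Whether mouse 1 differs from mice 2 and 3 in this contrast was not tested, since each mouse has a single array per population.

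**Figure D1:**
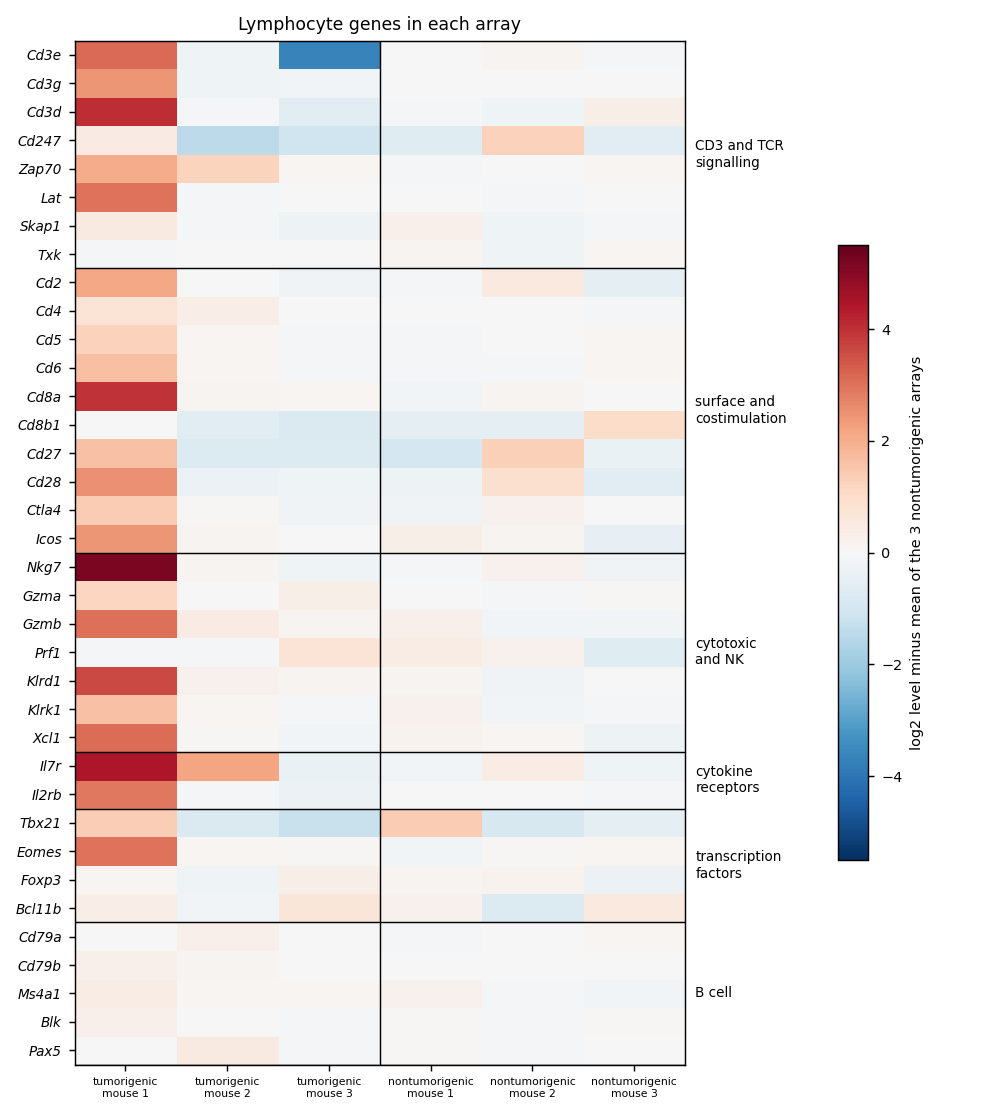
Heat map of the 36 lymphocyte genes (rows, by role) in the 6 arrays (columns, tumorigenic left of nontumorigenic), coloured by the log2 level minus the gene's mean over the 3 nontumorigenic arrays. The column of tumorigenic mouse 1 is red for most T and NK cell genes, up to Nkg7 at 8.54 against 3.35 for its nontumorigenic mean, while the 5 B cell rows stay pale in all columns.

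The arrays were first checked against the gate. Ptprc, which encodes CD45, read 10.21, 7.76 and 3.82 in labelled tumorigenic mice 1, 2 and 3, against 2.33, 3.59 and 2.51 in labelled nontumorigenic mice 1, 2 and 3. These values go against a CD45-negative gate, so directions are given between labels. Thy1 read 10.83, 10.51 and 9.33 under the tumorigenic label and 10.25, 9.67 and 10.04 under the other, with overlapping ranges. Cd24a read 11.85, 12.34 and 12.84, against 12.86, 12.84 and 12.99, and was lowest in the array where the T and NK cell genes were highest. Epithelial genes were present in all 6 arrays, with list medians of 7.49, 9.17 and 9.87 under the tumorigenic label and of 9.52, 9.46 and 9.99 under the other.

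Promoter windows are shown for 4 members: Nkg7, Xcl1 and Gzmb, which stood over 2 log2 units above the other arrays in labelled tumorigenic mouse 1, and Cd79a, a B cell gene that did not. They are examples, were not picked by the size of the step and do not stand for the T and NK windows as a set. Cd8a and Cd3d stood further above the other arrays (3.81 and 3.73) than Xcl1 and Gzmb (2.92 and 2.57). The Cd8a window held none of the motifs scanned, and the Cd3d window held 1 ETS site only. Each covers 250 bases before to 50 bases after the transcript start, from RefSeq on GRCm38.p6, read 5′ to 3′ on the gene's strand. Capitals mark matches on either strand to a RUNX core (TGTGGT), a T-box core (GGTGTGA) or an ETS site (CAGGAA), and no matches of different motifs overlap in these 4 windows.
Nkg7, chr7:43436888-43437187, plus strand: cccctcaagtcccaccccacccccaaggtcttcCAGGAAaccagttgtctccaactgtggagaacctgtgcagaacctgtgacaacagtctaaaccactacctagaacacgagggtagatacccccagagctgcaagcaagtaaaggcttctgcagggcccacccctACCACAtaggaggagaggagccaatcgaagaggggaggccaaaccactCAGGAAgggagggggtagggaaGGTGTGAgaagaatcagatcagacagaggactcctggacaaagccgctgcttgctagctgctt
Xcl1, chr1:164935473-164935772, minus strand: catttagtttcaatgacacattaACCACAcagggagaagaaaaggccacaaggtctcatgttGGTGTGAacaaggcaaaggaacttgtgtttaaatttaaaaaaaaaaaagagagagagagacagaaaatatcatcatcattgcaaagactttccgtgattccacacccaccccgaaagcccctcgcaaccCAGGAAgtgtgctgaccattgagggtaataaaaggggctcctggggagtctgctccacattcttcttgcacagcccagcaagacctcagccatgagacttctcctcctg
Gzmb, chr14:56262285-56262584, minus strand: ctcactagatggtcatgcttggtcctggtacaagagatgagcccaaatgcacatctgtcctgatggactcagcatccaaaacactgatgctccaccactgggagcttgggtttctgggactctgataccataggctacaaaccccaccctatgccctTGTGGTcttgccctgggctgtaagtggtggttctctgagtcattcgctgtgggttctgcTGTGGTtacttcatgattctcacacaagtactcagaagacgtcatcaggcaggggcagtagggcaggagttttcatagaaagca
Cd79a, chr7:24897247-24897546, plus strand: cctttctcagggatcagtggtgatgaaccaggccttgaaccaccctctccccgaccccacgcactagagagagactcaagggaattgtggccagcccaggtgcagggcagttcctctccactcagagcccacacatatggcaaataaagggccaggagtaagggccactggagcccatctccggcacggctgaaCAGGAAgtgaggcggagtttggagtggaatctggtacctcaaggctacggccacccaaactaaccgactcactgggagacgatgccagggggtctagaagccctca

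Nkg7 and Xcl1 were the only members whose windows held the T-box core, the letters bound by Tbx21 and Eomes, themselves members. The Gzmb window was the only member window with 2 RUNX cores. Windows were found for 24 of 36 members, 22 of them T and NK cell genes and 2 B cell genes. The T-box core was present in 2 of the 22 T and NK cell genes and in 3.98% of all 32851 windows in the table. A RUNX core was present in 10 of the 22, against 16.8% of all windows, and in 0 of the 2 B cell genes. The ETS site was present in 14 of the 22 and 1 of the 2 B cell genes, against 30.6% of all windows. Some genes have several windows and were counted once if any held the letters. The EBF site, a motif of B cell promoters, was scanned only in a strict form that reads the same on both strands. That form was in 0 of the 24 genes and in 0.904% of all windows. Looser forms of the site were not scanned, so the count does not show that the Cd79a window or any other lacks an EBF site. These counts describe letters in the windows and nothing about binding.

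Of the 7 cytotoxic and NK genes, 5 stood over 1 log2 unit above the rest in labelled tumorigenic mouse 1, and Gzma and Prf1 did not. Nkg7, a granule membrane protein of cytotoxic lymphocytes, read 8.54, 3.49 and 3.13 in labelled tumorigenic mice 1, 2 and 3, against 3.30, 3.59 and 3.16 in labelled nontumorigenic mice 1, 2 and 3. Mouse 1 was 4.95 above the next array, and the other 5 lay within the same narrow range whatever their label. The label means of Nkg7 were 5.05 ± 3.02 for tumorigenic and 3.35 ± 0.22 for nontumorigenic (SD, n = 3 each), which differ by 1.70 log2 units (SE 1.46) with an adjusted p of 0.805 by limma. The natural killer receptor chain Klrd1 (CD94) read 6.13, 2.74 and 2.66 under the tumorigenic label, against 2.66, 2.31 and 2.49. The chemokine Xcl1, which attracts dendritic cells, read 6.04, 3.01 and 2.80, against 3.13, 3.04 and 2.68. The protease Gzmb (granzyme B) read 5.80, 3.24 and 2.92, against 3.09, 2.62 and 2.65. In each of these 3 genes mouse 1 alone was high and its labelled tumorigenic array was more than 2 log2 units above the next.

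Gzma (granzyme A), a second protease of cytotoxic granules, read 3.86, 2.68 and 3.02 under the tumorigenic label, against 2.71, 2.62 and 2.76 under the other, with a smaller step of 0.83 to the next array. The activating receptor Klrk1 (NKG2D) lay 1.40 above the next array in mouse 1. Prf1, the pore-forming perforin, did not follow the others: it was highest in labelled tumorigenic mouse 3, and its differences in mice 1, 2 and 3 were -0.47, -0.33 and 1.42. Of the 7 cytotoxic and NK members all 7 had differences above 0, with a median of 1.001 over the mice and of 2.71, 0.060 and 0.17 in mice 1, 2 and 3. Of these 7, 5 had a labelled nontumorigenic mean below 2.98, the level under which the dimmest 25% of probe sets fall. Of all 18193 genes, 3228 did. The sizes of the differences of those 5 are therefore rough.

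The chains that make up the T cell receptor complex were high in the same array. Cd3d read 7.43, 3.26 and 2.79 in labelled tumorigenic mice 1, 2 and 3, against 3.26, 3.15 and 3.69 in labelled nontumorigenic mice 1, 2 and 3. Cd3g read 6.11, 3.43 and 3.54, against 3.68, 3.64 and 3.71. Labelled tumorigenic mouse 1 stood 3.73 above the next array for Cd3d and 2.40 for Cd3g. Among the 5 remaining arrays the labels overlapped for Cd3d, while for Cd3g labelled tumorigenic mice 2 and 3 lay below the labelled nontumorigenic arrays. Cd3e had another pattern: 10.28, 6.95 and 3.50 under the tumorigenic label and 7.15, 7.29 and 7.05 under the other. Its probe set was thus 2.99 above the next array in mouse 1 and was lowest in labelled tumorigenic mouse 3, so that its mean difference was -0.25 (SE 1.63, limma adjusted p = 0.977). Without the labelled tumorigenic array of mouse 3 that difference was 1.45.

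Downstream of the receptor, Lat, the membrane adaptor on which signalling proteins assemble, read 6.40, 3.30 and 3.42 under the tumorigenic label and 3.42, 3.35 and 3.42 under the other. The kinase Zap70, which binds phosphorylated CD3 chains, read 6.23, 5.38 and 4.28, against 4.09, 4.13 and 4.28, with the highest values in labelled tumorigenic mice 1 and 2. Zap70 had the smallest p of all members, averaging 5.30 ± 0.97 under the tumorigenic and 4.17 ± 0.10 under the nontumorigenic label (SD, n = 3 each). These differ by 1.13 log2 units (SE 0.48, 95% interval -0.059 to 2.32) with an adjusted p of 0.661 by limma. Its other 2 probe sets gave differences of only 0.033 and 0.14, so the value of 1.13 rests on 1 of 3 probe sets. None of the 3 placed mouse 1 more than 1 log2 unit above the rest. Cd247, the zeta chain of the complex, read 4.85, 2.96 and 3.32, against 3.75, 5.70 and 3.78, so its highest array was labelled nontumorigenic mouse 2. On another Cd247 probe set labelled tumorigenic mouse 1 was highest, at 4.44 against 3.37 or less elsewhere. The adaptor Skap1 and the kinase Txk had differences of 0.051 and -0.024, with no array apart.

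**Figure D2:**
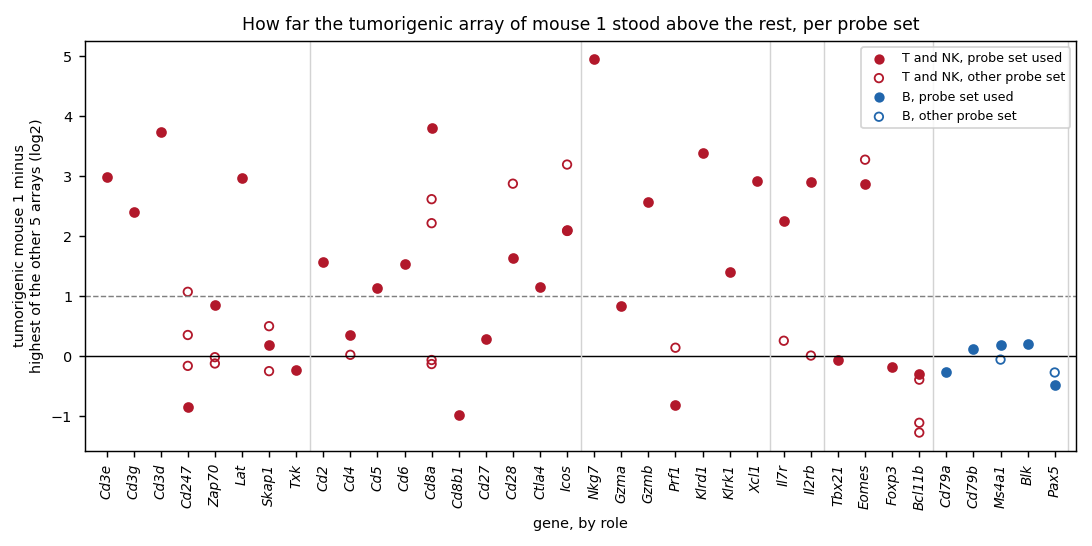
Each point is a probe set of a lymphocyte gene, and the vertical axis gives the level in labelled tumorigenic mouse 1 minus the highest of the other 5 arrays (log2); filled points are the probe sets used, open points the gene's others, and the dashed line marks 1. T and NK cell genes reach 4.95 (Nkg7), whereas no B cell probe set exceeds 0.21.

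Among surface receptors, the coreceptor of cytotoxic T cells was most distinct. Cd8a read 8.25, 4.44 and 4.37 in labelled tumorigenic mice 1, 2 and 3, against 4.13, 4.43 and 4.29 in labelled nontumorigenic mice 1, 2 and 3. Mouse 1 lay 3.81 above the next array, and the remaining 5 differed little by label. Cd8a has 5 probe sets, of which 3 placed this array over 1 log2 unit above the rest and 2 showed no array apart. Its partner Cd8b1 was highest in labelled nontumorigenic mouse 3, at 4.61, with 3.64 in labelled tumorigenic mouse 1. Cd4, the coreceptor of helper T cells, read 4.79, 4.43 and 4.08, against 4.08, 4.08 and 3.99, a difference of 0.38 (SE 0.20, limma adjusted p = 0.700), and its other probe set gave -0.075.

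Costimulatory and adhesion receptors followed with smaller steps. Icos, a receptor of activated T cells, read 6.15, 3.87 and 3.73 under the tumorigenic label, against 4.06, 3.87 and 3.27. All 3 of its probe sets placed mouse 1 at least 2.09 above the next array. Cd6, an adhesion receptor, read 5.34, 3.80 and 3.64, against 3.65, 3.64 and 3.78. In the same array the adhesion molecule Cd2, the receptor Cd5 and the inhibitory receptor Ctla4 stood 1.57, 1.14 and 1.15 above the next. Cd28, the main costimulatory receptor of T cells, read 5.62, 2.79 and 2.87, against 2.86, 3.99 and 2.53. Cd27, of the tumour necrosis factor receptor family, read 5.13, 2.74 and 2.76, against 2.53, 4.84 and 3.15. Among members, labelled nontumorigenic mouse 2 was over 1 log2 unit above its label's other arrays only for Cd27, Cd28 and Cd247. That held on the probe sets used, and the other probe sets of Cd28 and Cd247 did not show it. Cd27 has 1 probe set. Cd27 and Cd28 were singled out after their values were seen.

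Both measured cytokine receptor chains were high in labelled tumorigenic mouse 1. Il7r, the interleukin-7 receptor that keeps resting T cells alive, read 7.17, 4.92 and 2.39, against 2.57, 3.14 and 2.48. Labelled tumorigenic mouse 2 had the second highest value, and the log2 difference of 2.09 was the largest of the members (SE 1.17, limma adjusted p = 0.719). Il2rb, a chain of the interleukin-2 and interleukin-15 receptors, read 6.26, 3.25 and 3.00, against 3.36, 3.36 and 3.29. Its second probe set did not set mouse 1 apart, at 3.02 against 3.01 in labelled nontumorigenic mouse 2.

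Transcription factors were divided. Eomes, a T-box factor of CD8 T and NK cells, read 5.49, 2.62 and 2.57 under the tumorigenic label, against 2.34, 2.55 and 2.59, and its second probe set read 5.78 in mouse 1 and no more than 2.51 in the other arrays. Tbx21 (T-bet), its relative, was high in both arrays of mouse 1, at 5.75 and 5.81, and read 3.62 and 3.19 in labelled tumorigenic mice 2 and 3 and 3.52 and 3.87 in labelled nontumorigenic mice 2 and 3. Foxp3, the factor of regulatory T cells, stayed between 2.93 and 3.47 under the tumorigenic label and between 2.83 and 3.35 under the other. Bcl11b, which T cells need but other tissues also express, read 8.97, 8.48 and 9.27, against 8.85, 7.85 and 9.15, and was high in every array. Of these 4 factors, Eomes was the one with a step of over 1 log2 unit in labelled tumorigenic mouse 1.

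The step of over 1 log2 unit was absent from 12 of the 31 T and NK cell genes: Cd247, Zap70, Skap1, Txk, Cd4, Cd8b1, Cd27, Gzma, Prf1, Tbx21, Foxp3 and Bcl11b. Of 31, 24 were highest in labelled tumorigenic mouse 1, against 16.7% of all genes, and 7 were highest elsewhere: Prf1, Foxp3 and Bcl11b in labelled tumorigenic mouse 3, Txk and Tbx21 in labelled nontumorigenic mouse 1, Cd247 in labelled nontumorigenic mouse 2 and Cd8b1 in labelled nontumorigenic mouse 3. Over all 53 probe sets of T and NK cell genes, 26 lay over 1 log2 unit above the rest in labelled tumorigenic mouse 1, against 1.78% of the 34945 probe sets with a single symbol. For the 19 genes with that step, the other 5 arrays spanned a median of 0.44 and at most 3.79, in Cd3e.

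The 5 B cell members were flat across the 6 arrays. Cd79a, a signalling chain of the B cell receptor, read 3.49, 3.75 and 3.49 in labelled tumorigenic mice 1, 2 and 3, against 3.37, 3.49 and 3.60 in labelled nontumorigenic mice 1, 2 and 3. Its partner Cd79b read 3.41, 3.29 and 3.13, against 3.15, 3.15 and 3.15. For Cd79a the populations overlapped, and for Cd79b labelled tumorigenic mouse 3 lay just below the other label. Ms4a1 (CD20), a membrane protein of mature B cells, read 2.72, 2.43 and 2.43, against 2.53, 2.21 and 2.16. The kinase Blk read 3.25, 2.98 and 2.92, against 3.03, 2.86 and 3.04. Pax5, the factor that fixes B cell identity, read 2.99, 3.48 and 2.92, against 3.08, 2.92 and 2.99. No gene of the 5 spanned more than 0.55 over all arrays. The mean over all arrays of 1 of them, Ms4a1, lay below 2.98, the level of the dimmest 25% of probe sets. By the labelled nontumorigenic mean, 2 of the 5 (Ms4a1 and Blk) lay below that level. So did 9 of 31 T and NK cell genes and 3228 of all 18193 genes. All 5 B cell genes were dim, below 5 in every array, against 9 of 31 T and NK cell genes and 6690 of all 18193 genes.

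All 5 B cell genes had differences above 0, between 0.075 and 0.22, with SEs of 0.12 to 0.18 and limma adjusted p from 0.777 to 0.915. Their 95% intervals reached at most 0.62. Set against each other, the T and NK median exceeded the B median by 0.45 over all arrays, and by 1.96, -0.21 and 0.029 in mice 1, 2 and 3. With labelled tumorigenic mouse 1 left out this gap was -0.13. The contrast between the T and NK members and the 5 B members thus lay in 1 array, and it has no replicate. It holds for these members and not for the lineages at large. In that array 10 of 25 other T cell genes stood over 1 log2 unit above the rest, against 2.11% of all genes. So did 3 of 13 other NK cell genes and 6 of 19 other B cell and plasma cell genes.

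**Figure D3:**
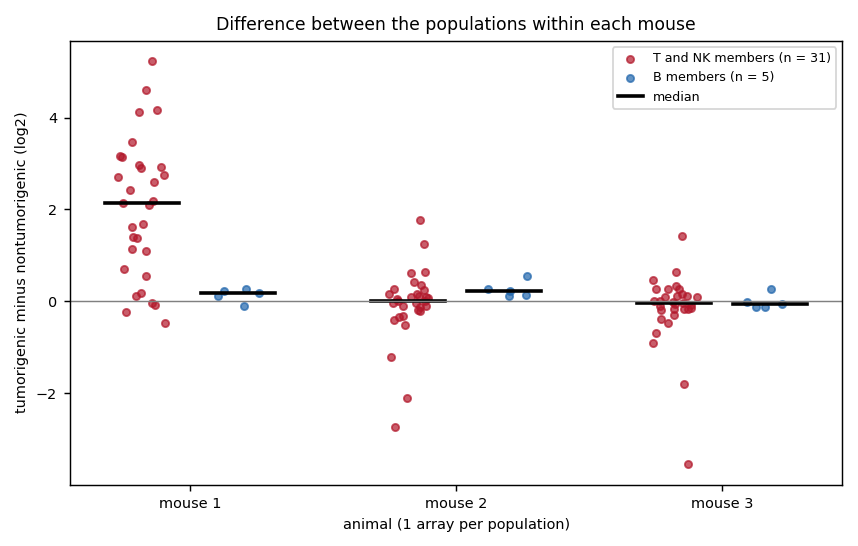
Each point is a gene, placed by its labelled tumorigenic minus labelled nontumorigenic level (log2) within a mouse, with T and NK cell genes left of B cell genes and black bars at the medians. The T and NK median is 2.14 in mouse 1 and near 0 in mice 2 and 3, and the B medians are 0.18, 0.22 and -0.062.

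Further genes of the same lineages were read from lists that hold no member. Of 30 other T cell genes 25 were measured, and 0 passed the adjusted threshold in either direction. In labelled tumorigenic mouse 1, 10 of the 25 stood over 1 log2 unit above the rest, against 2.11% of all genes. Those with the smallest p were Lag3 and Pdcd1, inhibitory receptors, with log2 differences of 0.92 and 0.54, the phosphatase Ptpn22 with 1.98 and the chemokine Ccl5 with 2.60. Ccl5 read 10.03, 6.72 and 3.56, against 3.56, 5.57 and 3.37. A further 3 genes with the step, Ifng, Fasl and Cxcr6, are named after their values were seen. Ifng (interferon gamma) read 7.42, 2.57 and 2.57, against 3.08, 2.54 and 2.64. Fasl, a death ligand of cytotoxic cells, read 7.68, 2.35 and 2.42, against 2.50, 2.74 and 2.34. The chemokine receptor Cxcr6 read 6.90, 2.24 and 2.10, against 2.25, 2.14 and 2.13. For each of these 3 genes mouse 1 was the single high array.

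Of 15 other NK cell genes 13 were measured, and 0 passed. The step of over 1 log2 unit in labelled tumorigenic mouse 1 was found in 3 of 13, against 2.11% of all genes. These were Klrc1, the partner of Klrd1, Klrg1, a receptor of mature effector cells, and Fcgr3, an antibody receptor that macrophages carry too. Those with the smallest p were Fcgr3, with a log2 difference of 4.01, Klrb1b with 0.28, Il18rap with 0.45 and the integrin Itga2 with -0.20. Ncr1 (NKp46), which marks NK cells, read 2.70, 2.70 and 2.71, against 2.28, 2.92 and 2.51, with no array apart.

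Among 19 measured of 20 other B cell and plasma cell genes, 0 passed, and 6 had that step, against 2.11% of all genes. The 6 were Cd22, Cd37, Bank1, Blnk, Btk and Tnfrsf13b. Of these, Btk and Blnk are also expressed by macrophages. All 6 fell from labelled tumorigenic mouse 1 to mouse 2 to mouse 3, and so did the macrophage and myeloid median (10.00, 8.49 and 5.04). Whether these patterns are related was not tested. Cd22, a B cell inhibitory receptor, read 5.80, 3.83 and 2.95, against 3.05, 3.05 and 2.93. Bank1, a B cell scaffold protein, read 5.28, 3.10 and 2.23, against 2.43, 2.06 and 2.23. Their list had a median difference of 0.80, 0.75 and -0.0017 in mice 1, 2 and 3. By the smallest p the named genes are Tnfrsf13c, a survival receptor of B cells, with 1.17, Cd40, a receptor of B cells and macrophages, with 1.39, Cd72 with 0.84 and the kinase Btk with 1.32. Antibody heavy chain Ighm read 4.91, 4.89 and 4.92, against 4.92, 5.01 and 4.92, and did not separate any array. Ighm, Ncr1, Cd22 and Bank1 were singled out after their values were seen. The other B cell list therefore held genes with a step in mouse 1 that the 5 B cell members did not show.

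Myeloid and pan-leukocyte markers were high with the T and NK cell genes in labelled tumorigenic mouse 1, and also in mouse 2, where the T and NK median difference was near 0. Dendritic cell genes had median differences of 0.017, 0.23 and -0.083 in mice 1, 2 and 3, with 1 of 7 showing the step and 4 of 7 overall differences below 0. Neutrophil genes had 1.23, 0.15 and -0.16, with 0 of 7 showing the step. The same step was found in 11 of 15 macrophage and myeloid genes and 8 of 10 pan-leukocyte genes, against 2.11% of all genes. The step was thus not particular to T and NK cell genes. Medians of the 15 macrophage and myeloid genes were 10.00, 8.49 and 5.04 in labelled tumorigenic mice 1, 2 and 3, against 3.85, 3.81 and 4.07. The T and NK medians were 5.75, 3.30 and 3.19, against 3.32, 3.49 and 3.42. In labelled tumorigenic mouse 2, Ptprc at 7.76 and the myeloid median at 8.49 thus stood beside a T and NK median of 3.30, just below the lowest of the other label at 3.32. Of the 15 myeloid genes 14 had differences above 0, and their log2 levels summed to between 80.0 and 145.4 under the tumorigenic label and between 61.6 and 65.2 under the other. Of 10 pan-leukocyte genes 9 had differences above 0, with sums of 54.5 to 92.0 and of 49.4 to 52.1. Their part in the result was not tested. In bulk samples more cells of a type and more RNA per cell cannot be told apart.

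By the same naming rule, the log2 differences of other cell type markers were 6.85 for C1qb and 4.67 for Mrc1 (macrophages), 5.46 for Laptm5 and 3.93 for Coro1a (all leukocytes), 2.80 for Itgax and -0.70 for Zbtb46 (dendritic cells). They were -2.79 for Ltf, which mammary epithelium also makes, and 1.56 for S100a9 in the neutrophil list. Endothelial Robo4 and Cldn5 had 2.11 and 2.41, epithelial Krt19 and Cldn3 -2.92 and -1.67, and erythroid Alas2 and Slc4a1 -0.22 and 0.11. None of these passed the limma adjusted threshold.

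**Figure D4:**
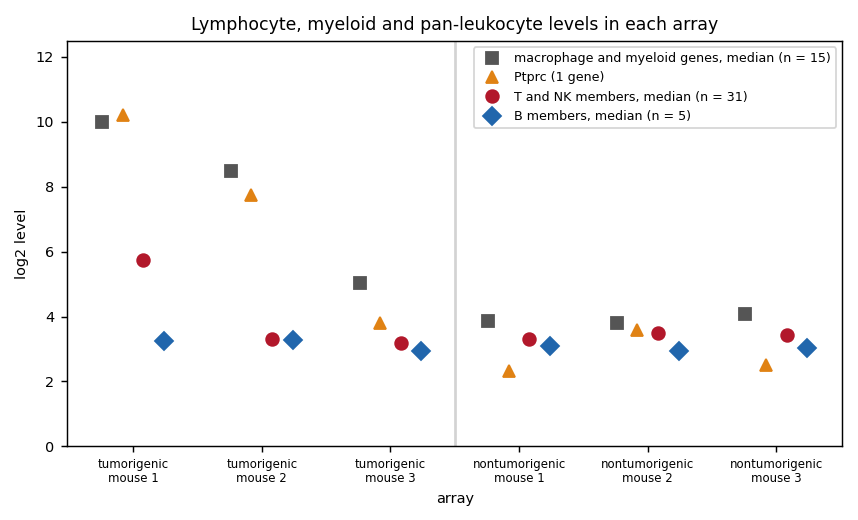
Median log2 level of T and NK members, B members and macrophage genes, and the level of Ptprc, in each array, tumorigenic left of nontumorigenic; each symbol is to be read across arrays, since levels of different probe sets are not comparable. Myeloid genes and Ptprc are high in tumorigenic mice 1 and 2 (medians 10.00 and 8.49), T and NK genes in mouse 1 alone (5.75), and B genes stay between 2.92 and 3.29.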

How the data were processed

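Tumour cells of 3 mice were profiled on 6 Affymetrix arrays, 1 per mouse and population. Per the labels' protocols, total RNA was amplified and labelled with biotin. The deposited values are log2 levels per probe set, normalised by the authors with RMA per the submitters' processing notes, which name no version; its background step is not given in the labels. The log2 scale was read from the values. Arrays have no sequencing depth.

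Of 45101 probe sets 64 were controls, 34945 of the others had 1 gene symbol by the platform annotation, 932 several and 9160 none, and genes were named from the first kind. All 36 measured members matched RefSeq (GRCm38.p6) by Entrez identifier. No filter on low values was used, since members count at any level, which gave 18193 genes; of 36 members 31 pass a filter at 2.98, the lowest 25% of probe sets. The populations were compared by limma 3.58.1 in R 4.3.3 (lmFit, eBayes, all 6 arrays, no covariate, two-sided, Benjamini-Hochberg over all genes at 0.05). The fit was run on simulated data with independent noise in each array, which checked only that it returned the planted differences on average. Those data held no array that stood apart, so they do not show how many such members the fit would miss. An exact permutation test of 3 arrays against 3 cannot go below 0.1, so none was used.

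Same-numbered arrays come from the same mouse, so the numbers pair them; deviations from the population means correlated at 0.079, 0.133 and 0.084 across genes for mice 1, 2 and 3. Alternatives were a fit blocked on the mouse, filters, scalings, priors, array weights, another probe set rule and leaving out arrays or mice.

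Members, lists and motifs were chosen with earlier results of these data known. Array values are given for the sort markers, B cell members, up to 4 T and NK members per role with the smallest p, and members with an array over 2 log2 units apart; of the other lymphocyte lists up to 4 genes, and of other marker lists up to 2, are named by smallest p. Exceptions are marked.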

Additional observations from a re-analysis of the deposited data

How the results depend on the processing

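No member passed the adjusted threshold under any of the 17 alternatives run. The 1 gene that passed over all genes became 0 with the mouse as a replicate block, with the lowest 25% or 50% of probe sets left out, with renewed quantile normalisation, with centring on the median and with a trended and robust prior. It stayed at 1 with array weights and with probe sets averaged per gene, and leaving out an array or a mouse gave 0 to 1. With the block 0 of 36 members passed as well, and the pairing changed no call on a member. The T and NK median difference ran from 0.47 to 0.65 over the alternatives that keep all arrays, and from -0.00011 to 1.07 when an array or a mouse was left out. The B median ran from 0.052 to 0.20 on leaving one out, and the T and NK minus B gap from -0.13 to 1.02. At the 50% filter 6 T and NK members and 0 B members remained, so the B values could not be computed there. Among the 26 members whose array values the naming rule calls for, no direction turned under scalings, filters, priors, weights or the other probe set rule; over all 31 T and NK members, those above 0 numbered 25 with array weights, against 26. Directions turned on leaving out an array or a mouse in these of the 26, given as lowest and highest log2 difference: Cd3e -1.95 to 1.45, Cd3g -0.19 to 1.14, Cd3d -0.40 to 2.14, Cd247 -1.60 to 0.32, Lat -0.035 to 1.51, Nkg7 -0.066 to 2.66. Likewise Xcl1 -0.045 to 1.57, Il2rb -0.21 to 1.41, Tbx21 -0.995 to 0.49, Foxp3 -0.22 to 0.31, Bcl11b -0.091 to 0.56, Blk -0.022 to 0.17, Pax5 -0.078 to 0.25. Without the labelled tumorigenic array of mouse 1, 7 of the 26 turned. The number of arrays and the dim levels of many members limit the precision of the differences.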
